A study of Mus musculus with 12 samples.

Results

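This report follows 44 imprinted genes through the step from mouse embryonic stem cells (ESCs) to epiblast-like cells (EpiLCs). The genes come from a list of known mouse imprinted genes, and each was found by matching the gene ID of the count table to its GENCODE symbol. All 44 were among the 51467 genes of the table, and 37 had enough reads to be tested, among 14731 genes tested in all. The 44 lie on 9 chromosomes in 19 places, counting genes within 1 Mb of each other as 1 place, and 19 of them are on chromosome 7.

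An imprinted gene is expressed mainly from the copy inherited from the mother or mainly from the copy inherited from the father. The copies are told apart by DNA methylation that was set in the egg or the sperm at an imprinting control region, and that must survive the wave of demethylation in the early embryo. Imprinted genes sit in clusters that often hold a long non-coding RNA, and many of them act on fetal growth, the placenta and the brain. The reads here were not split by parental copy, so the values below are levels of each gene and say nothing of which copy gave them or of whether the imprint was kept.

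ESCs were grown in medium with 15% fetal bovine serum, LIF and the inhibitor pair called 2i, which hold them in the naive state. EpiLCs, a model of the primed epiblast that follows, were collected about 56 h after removal of LIF and 2i. In both cell types RNA was labelled with 500 µM 4-thiouridine (4sU) for 30 min. Each extract was divided, with labelled RNA captured for the 4sU libraries, which measure nascent RNA, and total RNA depleted of ribosomal RNA used for the total libraries. The 4 groups were ESC 4sU, EpiLC 4sU, ESC total and EpiLC total, with 3 libraries each. By the study's methods the differentiation used wild type cells of a single miRNA reporter ESC line. The study calls its replicates biological. No source used here says whether they were separate cultures, so the p-values measure the spread between these libraries.

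The 4sU libraries held 3097693 to 5385644 gene reads and the total libraries 9300845 to 21975684. The cells carried the marks of their labels: in total RNA all 8 naive markers fell and all 6 primed markers rose. The third ESC replicate stood apart, with a chi-square per degree of freedom of 24.8 and 25.4 against the other ESC total libraries, which differed from each other by 2.39. Markers of other cell types were not silent. Of 12 fibroblast markers 6 could be tested, of which 3 rose and 1 fell, and their summed level was 65.7 to 83.1 reads per 1000000 gene reads (CPM) in ESC total libraries and 62 to 69.4 in EpiLC total libraries. Decorin (Dcn), itself an imprinted gene, was among them and had 0 reads in all ESC libraries. Most of the fibroblast sum was Fbln1, at a mean of 61.7 CPM in ESC total and 37.9 CPM in EpiLC total RNA. The 3 that rose, Col1a2, Dcn and Acta2, went from 0.157, 0 and 0.0386 CPM to 4.26, 4.81 and 6.73 CPM there. Pdgfrb, which fell, went from 8.54 to 2.02 CPM. Of 8 neural markers 7 were tested and 4 rose, of 8 primitive endoderm markers 5 were tested with 2 rising and 2 falling, and of 10 trophoblast markers 4 were tested with 1 rising and 1 falling, while the placental genes Prl3d1 and Tpbpa had 0 reads in all 12 libraries. Summed levels of the total libraries were 113 to 158 CPM in ESCs and 497 to 537 CPM in EpiLCs for the neural list, 132 to 175 and 29.9 to 32.9 CPM for the primitive endoderm list, and 52.5 to 66.1 and 24 to 30.9 CPM for the trophoblast list. Much of the change in each of these 3 sums came from a single gene. Mean levels in total RNA went from 48.5 to 391 CPM for the neural marker Nes. They went from 138 to 11.4 CPM for the endoderm marker Lama1 and from 40.1 to 3.89 CPM for the trophoblast marker Tfap2c. What part other cells have in the changes below was not tested. In bulk RNA a change in the share of a cell type and a change in RNA per cell cannot be told apart.

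More imprinted genes rose than fell on the way to EpiLCs. In total RNA, 20 of the 37 tested genes rose (54.1%) and 3 fell (8.11%), where a gene was called when its adjusted p was under 0.05 and its log2 fold change was over 1 in size. Over all genes tested, 16.3% rose and 11.2% fell. The median log2 change was 1.05 for the imprinted genes and 0.02 for all genes. In nascent RNA 16 rose (43.2%) and 4 fell (10.8%), against 11.9% and 13.5% of all genes, with a median of 0.66 against -0.09. Of the 37, Magel2, Nnat and Igf2 passed the filter on low reads only through EpiLC libraries, which by itself favours genes that rise. Ascl2 passed it only through ESC libraries, which favours a fall. Their calls below carry this limit. Among the 33 that reached 3 CPM in at least 3 libraries of each cell type, 17 rose in total RNA (51.5%) and 2 fell (6.06%). In nascent RNA 13 of them rose (39.4%) and 3 fell (9.09%). The shares of all genes given above are from the wider filter, and none were computed under this stricter one. With both libraries of ESC replicate 3 left out, 19 rose and 2 fell in total RNA, and 16 rose and 3 fell in nascent RNA. Genes of a cluster share regulation and are not independent of each other, so these shares describe the list and carry no test.

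**Figure D1:**
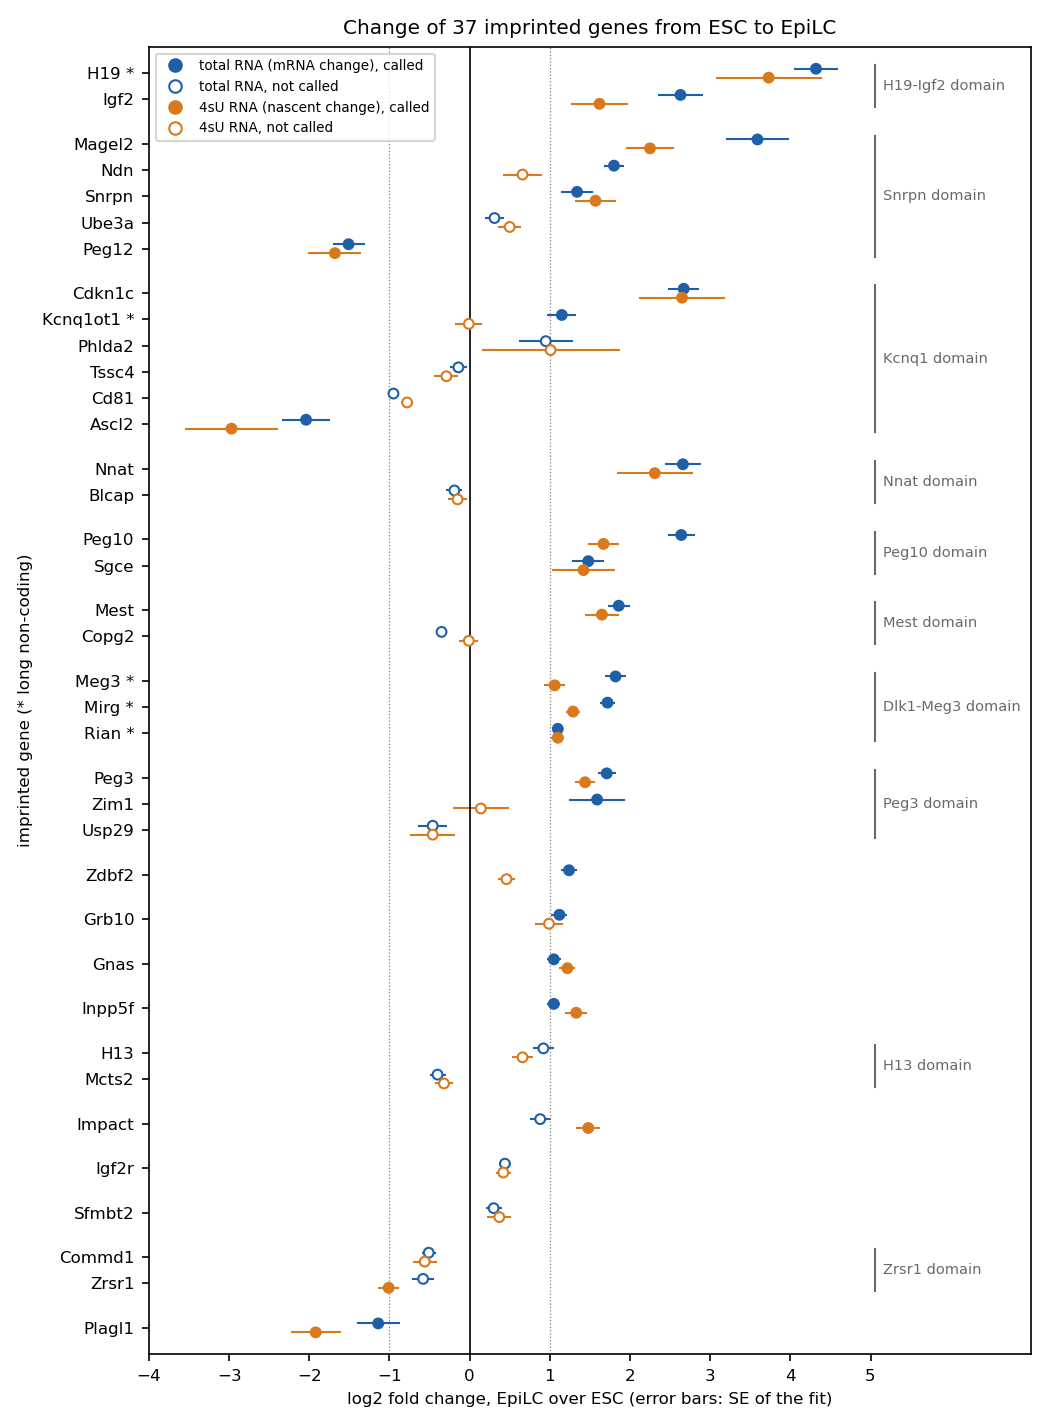
Log2 fold change from ESC to EpiLC of the 37 tested imprinted genes in total RNA (blue) and nascent RNA (orange), with the SE of the fit from 3 libraries per group. Filled points passed the test and dotted lines mark the fold threshold; 20 blue points are filled to the right and 3 to the left, and genes of 1 domain are bracketed.

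The largest change in total RNA was at the H19-Igf2 domain of distal chromosome 7, where H19 and Igf2 rose together. H19 (chr7:142575558-142578120, minus strand, mm10) is a long non-coding RNA made from the maternal copy, and Igf2 (chr7:142650766-142666816, minus strand), a fetal growth factor, is made from the paternal copy. The genes share enhancers, and 72645 bases separate them. H19 was at 6.08, 6.19 and 3.44 CPM in ESC total and 86.1, 95.1 and 153 CPM in EpiLC total libraries. The groups did not overlap, and the log2 change (EpiLC over ESC, ± SE from 3 libraries per group) was 4.32 ± 0.28 (adjusted p = 6.73e-09) in total RNA and 3.73 ± 0.66 (adjusted p = 0.000286) in nascent RNA. The nascent levels behind the second value were 1.64, 1.43 and 2.17 CPM in ESC 4sU and 19.3, 21.8 and 33.5 CPM in EpiLC 4sU libraries, and each ESC 4sU library held 8 H19 reads. Igf2 was at 1.45, 2.06 and 2.75 CPM in ESC total and 13.2, 8.91 and 15.5 CPM in EpiLC total libraries and at 4.7, 2.68 and 4.61 CPM in ESC 4sU and 13.2, 11 and 11.3 CPM in EpiLC 4sU libraries. The Igf2 groups did not overlap in either assay, and its log2 change was 2.63 ± 0.28 (adjusted p = 1.07e-06) in total RNA and 1.62 ± 0.36 (adjusted p = 0.00179) in nascent RNA. Igf2 passed the filter on low reads only through EpiLC libraries. Per length of exon, H19 went from 2.34 to 49.9 CPM per kilobase of exon (RPKM) in total RNA, and Igf2 from 0.398 to 2.39 RPKM.

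An exon of H19 holds the precursor of miR-675. Its mature arms are shown because they are what the H19 transcript is known to give rise to besides itself. Capitals mark the seed, bases 2 to 8, which pairs with targets.
mmu-miR-675-5p (chr7:142577112-142577133, minus strand): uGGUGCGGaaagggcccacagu
mmu-miR-675-3p (chr7:142577078-142577099, minus strand): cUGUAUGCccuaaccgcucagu
The precursor covers 84 bases of H19 exon, 3.76% of its exonic length, and reads that fell there on both annotations were not counted for H19. The arms have different seeds, and the libraries do not measure the mature miRNAs.

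**Figure D2:**
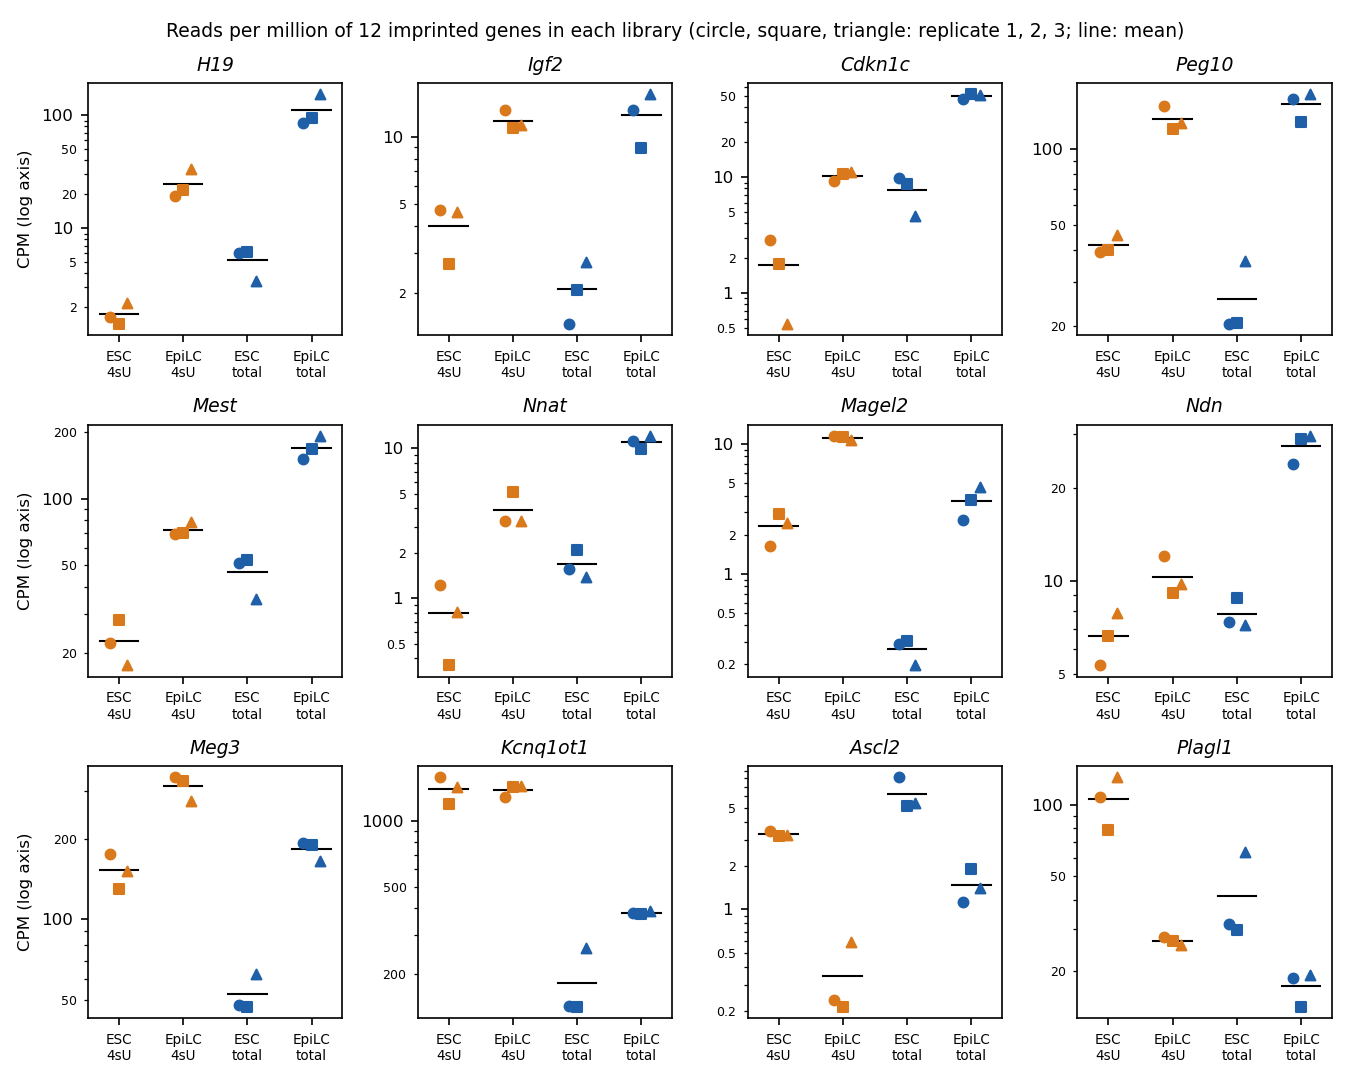
Levels in CPM (log axis) of 12 imprinted genes in each of the 12 libraries, by group, with the symbol giving the replicate and the line the mean of 3. Total H19 is 3.44 to 6.19 CPM in ESCs and 86.1 to 153 CPM in EpiLCs, nascent Kcnq1ot1 overlaps between the cell types, and Ascl2 and Plagl1 are lower in EpiLCs in both assays.

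The Kcnq1 domain, on the same end of chromosome 7, moved in both directions. Cdkn1c and Kcnq1ot1 rose in total RNA, Ascl2 fell, and Phlda2, Cd81 and Tssc4 were not called. Cdkn1c (chr7:143458339-143461050, minus strand), a cyclin-dependent kinase inhibitor that restrains growth, was at 9.79, 8.81 and 4.62 CPM in ESC total and 47.6, 51.8 and 51.3 CPM in EpiLC total libraries and at 2.86, 1.79 and 0.542 CPM in ESC 4sU and 9.19, 10.6 and 11 CPM in EpiLC 4sU libraries. Its log2 change was 2.67 ± 0.19 (adjusted p = 1.61e-08) in total RNA and 2.65 ± 0.54 (adjusted p = 0.000877) in nascent RNA, and the groups did not overlap in either. Its lowest ESC values were those of replicate 3.

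Kcnq1ot1 (chr7:143212155-143296549, minus strand) is the paternal long non-coding RNA that runs antisense through Kcnq1 and is known to silence the genes around it on that copy. It was the imprinted gene with the highest nascent CPM, at 1579, 1199 and 1424 CPM in ESC 4sU and 1279, 1422 and 1445 CPM in EpiLC 4sU libraries, where the groups overlapped and the log2 change was -0.01 ± 0.17 (adjusted p = 0.963). In total RNA it was far lower, at 142, 141 and 262 CPM in ESC total and 379, 376 and 387 CPM in EpiLC total libraries, and here it rose by 1.15 ± 0.18 (adjusted p = 5.26e-05). ESC replicate 3 lay between the other ESC libraries and the EpiLC libraries. The total RNA change was 0.99 without ESC total replicate 1 and 0.99 without ESC total replicate 2, just under the fold threshold. The annotated transcript covers 84395 bases without an intron, so its place in the order of levels is lower per length. It was at 16.4 RPKM in EpiLC nascent RNA, where 14 of the 37 tested imprinted genes were higher, and at 4.51 RPKM in EpiLC total RNA, where 27 were higher.

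Ascl2 (chr7:142966829-142969264, minus strand), a transcription factor needed for the placenta and expressed from the maternal copy, was at 8.11, 5.13 and 5.41 CPM in ESC total and 1.12, 1.9 and 1.39 CPM in EpiLC total libraries and at 3.48, 3.22 and 3.25 CPM in ESC 4sU and 0.236, 0.212 and 0.593 CPM in EpiLC 4sU libraries. The groups did not overlap, and Ascl2 fell in both, with log2 changes of -2.04 ± 0.30 (adjusted p = 3.36e-05) in total RNA and -2.97 ± 0.58 (adjusted p = 0.000689) in nascent RNA. Its 4sU reads were few, 17, 18 and 12 reads in ESCs and 1, 1 and 2 reads in EpiLCs. Ascl2 passed the filter on low reads only through ESC libraries. Phlda2, which restrains placental growth, was at 25.8, 26.3 and 6.29 CPM in ESC total and 37, 33.8 and 34.9 CPM in EpiLC total libraries, and its log2 change of 0.95 ± 0.34 (adjusted p = 0.0225) was under the fold threshold. ESC replicate 3 was the low value, with 64 reads against 445 and 523. The change was 0.43 (adjusted p = 0.00161) without it, but 1.28 without ESC total replicate 2 and 1.21 without ESC total replicate 1, both past the threshold. In nascent RNA Phlda2 was at 6.34, 4.29 and 2.71 CPM in ESC 4sU and 7.54, 10.2 and 8.9 CPM in EpiLC 4sU libraries, with a log2 change of 1.01 ± 0.86 (adjusted p = 0.34). It was called there, at 1.01 (adjusted p = 0.00402), in the fit without ESC total replicate 3. Cd81, a tetraspanin of the cell surface, had a log2 change in total RNA of -0.95 ± 0.07 (adjusted p = 1.58e-08), also under the fold threshold, from 455, 434 and 434 CPM in ESC total and 232, 221 and 234 CPM in EpiLC total libraries. Tssc4 differed by -0.14 ± 0.11 (adjusted p = 0.296), and its groups overlapped. Kcnq1, a potassium channel gene, had 2 to 10 reads in total libraries and 0 to 4 in 4sU libraries, too few to test. Slc22a18, a transporter gene, was also under the filter, with 50, 74 and 20 reads in ESCs and 7, 3 and 4 reads in EpiLCs in total RNA and 7, 4 and 3 reads in ESCs and 0, 0 and 0 reads in EpiLCs in nascent RNA. In a fit with no filter on low reads it was lower in EpiLCs, at -2.64 ± 0.43 (adjusted p = 7.43e-05) in total RNA.

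**Figure D3:**
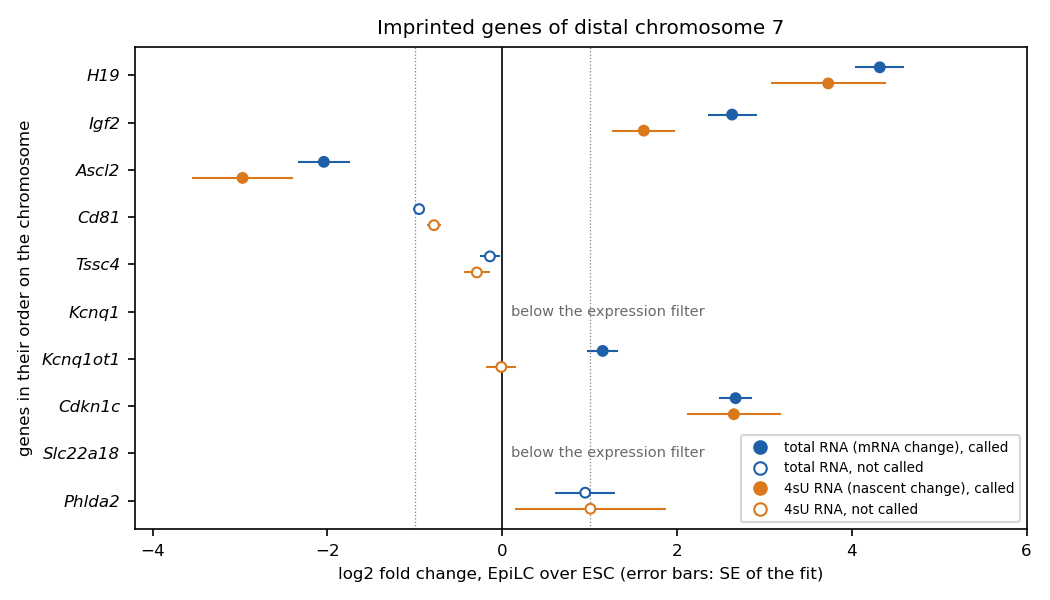
Log2 fold change (SE of the fit, 3 libraries per group) of the 10 imprinted genes of distal chromosome 7, listed in their order on the chromosome and not to distance. Cdkn1c at 2.67 and Ascl2 at -2.04 in total RNA lie in the same domain, and the blue and orange points of Kcnq1ot1 lie apart.

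On chromosome 12, the long non-coding RNAs of the Dlk1-Meg3 domain Meg3, Rian and Mirg rose while the protein-coding genes Dlk1 and Rtl1 had few reads. Meg3 (chr12:109541005-109571726), Rian (chr12:109603940-109661716) and Mirg (chr12:109729764-109749460), all on the plus strand, are made from the maternal copy in 1 direction, and Rian hosts small nucleolar RNAs and Mirg hosts miRNAs. Meg3 was at 47.9, 47.1 and 62.4 CPM in ESC total and 193, 189 and 165 CPM in EpiLC total libraries and at 175, 130 and 151 CPM in ESC 4sU and 338, 328 and 277 CPM in EpiLC 4sU libraries, with a log2 change of 1.82 ± 0.13 (adjusted p = 1.53e-08) in total RNA and 1.06 ± 0.13 (adjusted p = 1.06e-05) in nascent RNA. The groups did not overlap, but the nascent change was 0.99 without ESC 4sU replicate 2, under the fold threshold. Rian was the most abundant of them in total RNA, at 362, 347 and 342 CPM in ESC total and 759, 752 and 740 CPM in EpiLC total libraries, and was at 355, 286 and 316 CPM in ESC 4sU and 710, 675 and 660 CPM in EpiLC 4sU libraries. It rose by 1.10 ± 0.07 (adjusted p = 8.79e-09) in total RNA and by the same 1.10 ± 0.08 (adjusted p = 6.75e-08) in nascent RNA. Mirg was at 29, 29.9 and 27.4 CPM in ESC total and 90.4, 94.3 and 101 CPM in EpiLC total libraries and at 107, 132 and 132 CPM in ESC 4sU and 308, 301 and 295 CPM in EpiLC 4sU libraries, and rose by 1.72 ± 0.09 (adjusted p = 9.64e-10) in total RNA and by 1.29 ± 0.09 (adjusted p = 3.99e-08) in nascent RNA. Reads on the small RNAs inside these genes on the same strand were not counted for them, over 1.73% of the exonic bases of Meg3, 3.32% of Rian and 4.99% of Mirg. The paternal genes Dlk1, a membrane protein of the Notch ligand type, and Rtl1, a gene of retrotransposon origin that acts in the placenta, did not pass the filter. Dlk1 had 11, 9 and 2 reads in ESCs and 25, 29 and 31 reads in EpiLCs in total RNA, higher in EpiLCs by 2.64 ± 0.42 (adjusted p = 5.62e-05) in the fit with no filter. Rtl1 had at most 6 reads in any library.

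The miRNA miR-127 is made from the maternal copy antisense to the Rtl1 exon, so that its arms match the Rtl1 transcript base for base. They lie between Meg3 and Rian, outside both, on the same strand as these RNAs that rose and opposite a gene with almost no reads. The arms are shown for this match to Rtl1, with the seed in capitals, and their own levels were not analysed here.
mmu-miR-127-5p (chr12:109592854-109592875, plus strand): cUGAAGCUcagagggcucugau
mmu-miR-127-3p (chr12:109592888-109592909, plus strand): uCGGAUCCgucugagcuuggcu
In all, 6 miRNA annotations lie opposite 516 bases of Rtl1 exon (8.12%), and counting used the strand, so that reads of these RNAs did not add to Rtl1.

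At the Prader-Willi and Angelman domain of chromosome 7, named here for Snrpn, the paternal genes Snrpn, Ndn and Magel2 rose and the paternal gene Peg12 fell. Magel2 (chr7:62377010-62381640), a gene of the MAGE family that acts with ubiquitin ligases, was nearly unread in ESC total RNA. It passed the filter on low reads only through EpiLC libraries. It had 5, 6 and 2 reads in ESCs and 23, 39 and 47 reads in EpiLCs, which were 0.29, 0.302 and 0.197 CPM in ESC total and 2.57, 3.7 and 4.67 CPM in EpiLC total libraries. The log2 change was 3.59 ± 0.39 (adjusted p = 1.72e-06) in total RNA and 2.25 ± 0.30 (adjusted p = 2.47e-05) in nascent RNA, where it was at 1.64, 2.86 and 2.44 CPM in ESC 4sU and 11.5, 11.2 and 10.7 CPM in EpiLC 4sU libraries. Ndn (chr7:62346569-62350262), of the same family and linked to neuronal differentiation, was at 7.36, 8.81 and 7.18 CPM in ESC total and 24, 28.9 and 29.5 CPM in EpiLC total libraries and at 5.32, 6.62 and 7.86 CPM in ESC 4sU and 12, 9.11 and 9.79 CPM in EpiLC 4sU libraries. The groups of Ndn did not overlap in either assay, and it rose in total RNA by 1.80 ± 0.13 (adjusted p = 2.16e-08) while its nascent change was 0.66 ± 0.24 (adjusted p = 0.0321), under the fold threshold. Snrpn, a core protein of the spliceosome, was at 84.1, 90 and 52 CPM in ESC total and 182, 186 and 199 CPM in EpiLC total libraries and at 67.5, 45.1 and 27.7 CPM in ESC 4sU and 139, 132 and 131 CPM in EpiLC 4sU libraries, and rose by 1.34 ± 0.20 (adjusted p = 2.91e-05) in total RNA and by 1.57 ± 0.25 (adjusted p = 0.000115) in nascent RNA. ESC replicate 3 had the lowest Snrpn value in each assay, and 15% of the exonic bases of Snrpn were shared with Snurf and Gm38393 and were not counted.

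Peg12 (chr7:62461871-62464510, minus strand), a member of the Frat family of GSK3 binding proteins, lies next to Magel2 and Ndn and went the other way. It was at 11.9, 13.5 and 14 CPM in ESC total and 3.24, 5.21 and 5.27 CPM in EpiLC total libraries and at 10, 11.8 and 10.3 CPM in ESC 4sU and 1.88, 4.45 and 4.15 CPM in EpiLC 4sU libraries, with no overlap, and fell with log2 changes of -1.51 ± 0.20 (adjusted p = 1.04e-05) in total RNA and -1.68 ± 0.33 (adjusted p = 0.000641) in nascent RNA. Ube3a, the ubiquitin ligase whose maternal copy is lost in Angelman syndrome, was at 307, 311 and 336 CPM in ESC total and 389, 385 and 404 CPM in EpiLC total libraries, a log2 change of 0.31 ± 0.12 (adjusted p = 0.0393).

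The Peg3 domain at the start of chromosome 7 held a gene that rose beside one that was not called. Peg3 (chr7:6703892-6730421, minus strand), a zinc finger protein made from the paternal copy, was at 80.1, 79.3 and 103 CPM in ESC total and 284, 265 and 297 CPM in EpiLC total libraries and at 65.8, 45.8 and 56.9 CPM in ESC 4sU and 149, 150 and 151 CPM in EpiLC 4sU libraries. No groups overlapped, and it rose by 1.71 ± 0.11 (adjusted p = 6.39e-09) in total RNA and by 1.44 ± 0.13 (adjusted p = 8.92e-07) in nascent RNA. Usp29 (chr7:6730583-6967219, plus strand), a paternal gene of the deubiquitinase family, starts 161 bases away in the other direction. It was at 4.69, 4.23 and 4.03 CPM in ESC total and 3.35, 3.41 and 2.68 CPM in EpiLC total libraries, a log2 change of -0.46 ± 0.18 (adjusted p = 0.0326), and -0.46 ± 0.28 in nascent RNA (adjusted p = 0.185). Zim1, a maternal zinc finger gene on the far side of Peg3, was called higher in total RNA at 1.59 ± 0.35 (adjusted p = 0.000979) on few reads, 12, 14 and 12 reads in ESCs and 29, 27 and 18 reads in EpiLCs, which were 0.695, 0.705 and 1.18 CPM in ESC total and 3.24, 2.56 and 1.79 CPM in EpiLC total libraries. Its nascent levels, 2.86, 3.04 and 5.69 CPM in ESC 4sU and 4.71, 4.03 and 2.97 CPM in EpiLC 4sU libraries, overlapped, with a log2 change of 0.14 ± 0.35 (adjusted p = 0.757).

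The 300 bases around the start of Peg3, from 250 before to 50 after, also hold the start of Usp29 on the other strand, and are shown as the piece of DNA between a gene that rose and a gene that was not called. The sequence is that of RefSeq (GRCm38.p6), chr7:6730370-6730669, minus strand, with the 13 CG dinucleotides, where methylation can sit, in capitals.
Peg3 promoter: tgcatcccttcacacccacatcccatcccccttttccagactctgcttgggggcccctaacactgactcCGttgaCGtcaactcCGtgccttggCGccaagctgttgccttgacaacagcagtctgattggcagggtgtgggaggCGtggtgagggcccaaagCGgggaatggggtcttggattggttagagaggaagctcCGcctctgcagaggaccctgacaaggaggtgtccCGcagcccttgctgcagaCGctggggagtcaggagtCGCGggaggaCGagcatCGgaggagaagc
The window holds no copy of TGCCGC, the core that the imprint-protecting protein ZFP57 binds when methylated, on either strand.

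On chromosome 6, Peg10 and Sgce rose together and Mest rose without its neighbour Copg2. Peg10 (chr6:4747306-4760517, plus strand), a gene of retrotransposon origin needed for the placenta, and Sgce (chr6:4674350-4747207, minus strand), which encodes epsilon-sarcoglycan, are both paternal and are separated by 98 bases. Peg10 was at 20.4, 20.6 and 36.1 CPM in ESC total and 159, 128 and 165 CPM in EpiLC total libraries and at 39.1, 40.1 and 45.8 CPM in ESC 4sU and 148, 121 and 127 CPM in EpiLC 4sU libraries, and rose by 2.64 ± 0.17 (adjusted p = 5.61e-09) in total RNA and by 1.67 ± 0.19 (adjusted p = 6.6e-06) in nascent RNA. Sgce was at 3.59, 3.98 and 7.18 CPM in ESC total and 12.9, 12 and 11.9 CPM in EpiLC total libraries and at 2.04, 2.33 and 4.07 CPM in ESC 4sU and 6.6, 8.48 and 6.23 CPM in EpiLC 4sU libraries, and rose by 1.48 ± 0.20 (adjusted p = 1.14e-05) in total RNA and by 1.42 ± 0.39 (adjusted p = 0.00645) in nascent RNA. No groups of either gene overlapped, and in total RNA ESC replicate 3 was the highest ESC value of both. Asb4, a maternal gene of this domain, had at most 11 reads in any library.

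Mest (chr6:30733506-30748465, plus strand), an enzyme-like protein of the hydrolase family made from the paternal copy, was at 51.3, 53 and 35.3 CPM in ESC total and 151, 167 and 192 CPM in EpiLC total libraries and at 22.1, 28.3 and 17.6 CPM in ESC 4sU and 69, 69.7 and 78 CPM in EpiLC 4sU libraries. The groups did not overlap, and it rose by 1.86 ± 0.14 (adjusted p = 3.3e-08) in total RNA and by 1.65 ± 0.21 (adjusted p = 1.64e-05) in nascent RNA. Copg2 (chr6:30747554-30896739, minus strand), a subunit of the COPI vesicle coat, runs into Mest from the other side and shares 912 exonic bases with it on the opposite strand. It was at 144, 156 and 158 CPM in ESC total and 126, 121 and 113 CPM in EpiLC total libraries, with a log2 change of -0.35 ± 0.07 (adjusted p = 0.000639), and at -0.01 ± 0.12 in nascent RNA (adjusted p = 0.935), where the groups overlapped. Mest has several promoter windows, and the one at the gene start given above (chr6:30733256-30733555) holds 0 copies of TGCCGC and 8 CG dinucleotides. The window at chr6:30737800-30738099 (plus strand, RefSeq GRCm38.p6) is shown because it holds 2 copies among 17 CG dinucleotides. The copies are read here on the plus strand as GCGGCA and set in capitals.
Mest promoter: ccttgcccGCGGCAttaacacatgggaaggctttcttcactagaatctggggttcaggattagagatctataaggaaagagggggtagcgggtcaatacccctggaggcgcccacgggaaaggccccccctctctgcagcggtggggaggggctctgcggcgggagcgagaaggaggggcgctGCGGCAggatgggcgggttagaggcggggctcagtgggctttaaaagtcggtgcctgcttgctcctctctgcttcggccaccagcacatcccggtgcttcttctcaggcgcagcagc

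On chromosome 2, Nnat rose while Blcap, in whose intron it lies on the other strand, was not called. Nnat (chr2:157560078-157562522, plus strand), a small membrane protein first known from the developing brain, was at 1.56, 2.11 and 1.38 CPM in ESC total and 11.2, 9.85 and 12.1 CPM in EpiLC total libraries and at 1.23, 0.358 and 0.813 CPM in ESC 4sU and 3.3, 5.09 and 3.26 CPM in EpiLC 4sU libraries. It rose by 2.66 ± 0.22 (adjusted p = 1.12e-07) in total RNA and by 2.31 ± 0.47 (adjusted p = 0.000896) in nascent RNA, and its 4sU reads were few, 6, 2 and 3 reads in ESCs and 14, 24 and 11 reads in EpiLCs. Nnat passed the filter on low reads only through EpiLC libraries. The summed neural markers were higher in EpiLCs as well, 497 to 537 against 113 to 158 CPM in total RNA. Most of that was Nes, at a mean of 391 against 48.5 CPM, while Tubb3 was at 48.2 against 57.8 CPM. Of the 7 neural markers tested, 4 rose and 0 fell. Their part in the rise of Nnat, Ndn and Magel2 was not tested. Blcap was at 29.7, 27.9 and 23.9 CPM in ESC total and 24, 23.5 and 24.6 CPM in EpiLC total libraries, where the groups overlapped, with a log2 change of -0.19 ± 0.10 (adjusted p = 0.109). Gnas, the stimulatory G protein alpha subunit, was at 182, 177 and 187 CPM in ESC total and 393, 358 and 377 CPM in EpiLC total libraries and at 80.4, 81.9 and 107 CPM in ESC 4sU and 221, 200 and 198 CPM in EpiLC 4sU libraries and rose by 1.05 ± 0.09 (adjusted p = 8.4e-08) in total RNA and by 1.22 ± 0.10 (adjusted p = 3.13e-07) in nascent RNA. The Gnas count covers every transcript of the locus, imprinted or not, and its total RNA change was 0.98 with no filter on low reads. At the H13 domain neither gene was called in total RNA, with 0.92 ± 0.13 (adjusted p = 1.48e-05) for H13, a signal peptide peptidase, and -0.40 ± 0.10 (adjusted p = 0.00213) for Mcts2, a retrogene in its intron. Both were shifted, in opposite directions, by less than the fold threshold. H13 was at 18.9, 17 and 14.9 CPM in ESC total and 30.5, 30.3 and 36.7 CPM in EpiLC total libraries, and Mcts2 was at 42.5, 40.5 and 36.3 CPM in ESC total and 28.6, 32.2 and 29.6 CPM in EpiLC total libraries. Sfmbt2, a Polycomb group gene, differed by 0.30 ± 0.10 (adjusted p = 0.0163).

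Of the 8 genes with no listed neighbour, Gnas, Grb10, Inpp5f and Zdbf2 rose in total RNA and Plagl1 fell. Plagl1 (chr10:13090788-13131694, plus strand), a paternal zinc finger transcription factor, was at 31.5, 29.7 and 63.6 CPM in ESC total and 18.7, 14.2 and 19.3 CPM in EpiLC total libraries and at 108, 78 and 130 CPM in ESC 4sU and 28, 26.7 and 25.8 CPM in EpiLC 4sU libraries. It fell in both, with log2 changes of -1.14 ± 0.27 (adjusted p = 0.00213) in total RNA and -1.92 ± 0.31 (adjusted p = 0.000131) in nascent RNA. ESC replicate 3 was the highest ESC value in each assay, and the total RNA change was -0.83 without ESC total replicate 3 and -0.99 without EpiLC total replicate 2, under the fold threshold, while the nascent call held with every library left out in turn. Its promoter (chr10:13090582-13090881, plus strand, RefSeq GRCm38.p6) is shown as that of a gene that fell and holds the same motif, with the 1 copy in capitals among 26 CG dinucleotides.
Plagl1 promoter: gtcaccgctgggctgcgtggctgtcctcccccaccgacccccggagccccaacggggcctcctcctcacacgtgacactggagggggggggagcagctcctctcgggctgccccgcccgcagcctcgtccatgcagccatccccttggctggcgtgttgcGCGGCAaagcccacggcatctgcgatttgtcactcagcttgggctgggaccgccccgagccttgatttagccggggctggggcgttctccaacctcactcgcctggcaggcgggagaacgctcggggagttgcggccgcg

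Grb10, an adaptor that restrains insulin and IGF signalling, was at 172, 175 and 126 CPM in ESC total and 334, 332 and 358 CPM in EpiLC total libraries and at 26.6, 21.5 and 24.1 CPM in ESC 4sU and 49.7, 46 and 46.9 CPM in EpiLC 4sU libraries. It rose in total RNA by 1.12 ± 0.10 (adjusted p = 2.94e-07), and by 0.97 without ESC total replicate 3. Its nascent change of 0.99 ± 0.18 (adjusted p = 0.000294) was just under the threshold. The nascent change was called in 6 of the 12 fits that left out 1 library, under each of the 3 other scalings and with DESeq2 (1.04). Inpp5f, an inositol phosphatase, was at 20, 19.7 and 22.5 CPM in ESC total and 42.8, 44 and 41.1 CPM in EpiLC total libraries and at 11.7, 11.6 and 12.7 CPM in ESC 4sU and 31.6, 31.2 and 27.6 CPM in EpiLC 4sU libraries, and rose by 1.05 ± 0.08 (adjusted p = 6.1e-08) in total RNA and by 1.33 ± 0.14 (adjusted p = 2.79e-06) in nascent RNA. Its total RNA change was 0.98 with no filter on low reads. Zdbf2, a zinc finger gene, was at 146, 132 and 142 CPM in ESC total and 335, 315 and 340 CPM in EpiLC total libraries and at 402, 358 and 289 CPM in ESC 4sU and 486, 468 and 482 CPM in EpiLC 4sU libraries. It rose by 1.24 ± 0.10 (adjusted p = 4.3e-08) in total RNA, and its nascent change was 0.46 ± 0.10 (adjusted p = 0.0013). Impact, an inhibitor of the GCN2 stress kinase pathway, was called in nascent RNA alone. It was at 318, 298 and 219 CPM in ESC total and 480, 513 and 528 CPM in EpiLC total libraries and at 173, 161 and 112 CPM in ESC 4sU and 400, 421 and 414 CPM in EpiLC 4sU libraries, and rose in nascent RNA by 1.48 ± 0.15 (adjusted p = 2.2e-06), with a log2 change in total RNA of 0.88 ± 0.13 (adjusted p = 5.01e-05), under the fold threshold.

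The remaining genes differed by less. Zrsr1, a retrogene related to a splicing factor, was at 77.7, 88.9 and 94.4 CPM in ESC 4sU and 43.8, 39.6 and 46.6 CPM in EpiLC 4sU libraries and was called lower there at -1.01 ± 0.13 (adjusted p = 2.21e-05), on the edge of the threshold. The call was lost in 9 of the 12 fits that left out 1 library, which gave -1.11 to -0.89 over the 12, and under each of the 3 other scalings. In total RNA it was at 20.9, 23.9 and 17 CPM in ESC total and 16, 13 and 13.2 CPM in EpiLC total libraries, with a change of -0.58 ± 0.14 (adjusted p = 0.00279). Commd1, within whose span Zrsr1 lies on the other strand, differed by -0.51 ± 0.09 (adjusted p = 0.000132) in total RNA. Igf2r, the maternal receptor that clears IGF2, was at 244, 229 and 261 CPM in ESC total and 346, 312 and 333 CPM in EpiLC total libraries, with no overlap and a log2 change of only 0.44 ± 0.07 (adjusted p = 6.43e-05). Airn, the long non-coding RNA that silences Igf2r on the paternal copy, had 1 to 11 reads in any library, and Nap1l5 had 0 to 15.

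Of the 14 tested genes not called in total RNA, 12 had an adjusted p under 0.05, and their log2 changes ran from -0.95 to 0.95. They are not counted as changed. Genes of either parental assignment rose and fell. Of 15 tested genes assigned to the maternal copy, 8 rose (53.3%) and 1 fell (6.67%) in total RNA. Of 19 assigned to the paternal copy, 12 rose (63.2%) and 2 fell (10.5%). Over all genes tested 16.3% rose and 11.2% fell. By kind, all 5 tested long non-coding RNAs rose in total RNA, and of the 32 tested protein-coding genes 15 rose (46.9%) and 3 fell (9.38%). Among all genes tested, 20% of long non-coding and 15.4% of protein-coding genes rose, and 14% and 11.7% fell.

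Changes in total RNA were mostly mirrored in nascent RNA. Of the 20 genes that rose in total RNA, 15 also rose in nascent RNA, and the 3 that fell did so in both. The exceptions were Zim1, Ndn, Grb10, Kcnq1ot1 and Zdbf2, called higher in total RNA alone, and Impact and Zrsr1, called in nascent RNA alone. In nascent RNA both Grb10 and Zrsr1 were on the edge of the fold threshold. Whether the changes differ is the stability change, the interaction of cell type and assay. It was called higher for 2 of the 37 (5.41%) and lower for 0, against 1.24% and 0.305% of all genes tested, and its median was 0.15 against 0.11 for all genes. The count of 0 is that of limma, with 2 of the 37 lower at an unadjusted p under 0.05, and edgeR and DESeq2 also called 0 lower. With both libraries of ESC replicate 3 left out, 4 were called higher. Split by kind, the reported fit called 1 of the 5 long non-coding genes (20%) and 1 of the 32 protein-coding genes (3.12%) higher. Among all genes tested, 3.41% of long non-coding and 0.95% of protein-coding genes were called higher in stability. The median stability changes of those kinds were 0.47 and 0.06, so long non-coding genes were shifted up as a kind.

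The 2 called higher in the reported fit were Kcnq1ot1 and Ndn. For Kcnq1ot1 the stability change was 1.16 ± 0.25 (adjusted p = 0.019), and for Ndn it was 1.14 ± 0.27 (adjusted p = 0.0334). The ratio of total to nascent RNA, as log2, was -3.48, -3.08 and -2.44 in ESCs and -1.76, -1.92 and -1.90 in EpiLCs for Kcnq1ot1 and 0.45, 0.40 and -0.15 in ESCs and 0.99, 1.65 and 1.57 in EpiLCs for Ndn, by library pair of the same number. Neither call was firm. Leaving out 1 library at a time, Kcnq1ot1 lost the call without ESC total replicate 1 (0.94), ESC total replicate 2 (1.00), EpiLC 4sU replicate 1 (1.02), EpiLC 4sU replicate 2 (1.18), EpiLC total replicate 2 (1.16) and EpiLC total replicate 3 (1.14). Ndn lost it without ESC 4sU replicate 2 (1.04) or 3 (0.95), ESC total replicate 1 (1.00), EpiLC 4sU replicate 1 (1.17), 2 (1.04) or 3 (1.03), and EpiLC total replicate 2 (1.10) or 3 (1.08). Of the other genes called in total RNA alone, Zdbf2 had a stability change of 0.78 ± 0.14 (adjusted p = 0.00959), under the fold threshold, Zim1 of 1.45 ± 0.49 (adjusted p = 0.102) and Grb10 of 0.13 ± 0.20 (adjusted p = 0.763). Meg3, at 0.76 ± 0.18 (adjusted p = 0.0315), and Peg10, at 0.97 ± 0.26 (adjusted p = 0.047), were past the adjusted p threshold and not the fold threshold. Peg10 was called at 1.19 without ESC total replicate 3, as were Zim1 at 1.63 and Plagl1 at 1.08. A block for each cell type and number sets each total library against the 4sU library of its own number. With it, Zim1 was called higher in stability at 1.49 (adjusted p = 0.0277), beside Kcnq1ot1 and Ndn.

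Imprinted RNAs ran from percentile 10.4 to 98.8 of all genes in ESCs in relative stability, the log2 ratio of total to nascent RNA within a cell type. Over all genes tested the median was 0.03 in ESCs and 0.15 in EpiLCs. At the stable end were Grb10, at 2.70 ± 0.32 (SD, n = 3) in ESCs and 2.84 ± 0.09 in EpiLCs, Copg2 at 2.48 ± 0.08 and 2.15 ± 0.08, Cdkn1c at 2.25 ± 0.53 and 2.28 ± 0.08, and Igf2r at 2.08 ± 0.06 and 2.10 ± 0.06. Grb10 stood at percentile 98.8 of all genes in ESCs and 99.3 in EpiLCs. At the other end were Kcnq1ot1 at -3.00 ± 0.52 and -1.86 ± 0.09, Magel2 at -3.00 ± 0.49 and -1.65 ± 0.48, Zim1 at -2.13 ± 0.11 and -0.66 ± 0.10, Mirg at -2.10 ± 0.19 and -1.66 ± 0.11, and Zrsr1 at -2.09 ± 0.33 and -1.63 ± 0.18. This ratio is of exon reads and sets the tested genes against each other, with no decay rate in it.

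The long non-coding RNAs of the list were spread from -3.00 to 1.48 in ESCs. H19 was at 1.48 ± 0.77 in ESCs and 2.15 ± 0.03 in EpiLCs, Rian at 0.14 ± 0.13 and 0.14 ± 0.04, and Meg3 at -1.54 ± 0.30 and -0.78 ± 0.03, beside the Mirg and Kcnq1ot1 values above. The medians over all long non-coding genes tested were -2.88 and -2.32, and over protein-coding genes 0.29 and 0.37. All 5 imprinted ones, except Kcnq1ot1 in ESCs, lay above the median of their kind in both cell types. Meg3, Rian and Mirg are read in 1 direction along the same stretch of chromosome 12, and their mean ratios in ESCs, 0.14, -1.54 and -2.10 for Rian, Meg3 and Mirg, were further apart than the SDs, with no test made.

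**Figure D4:**
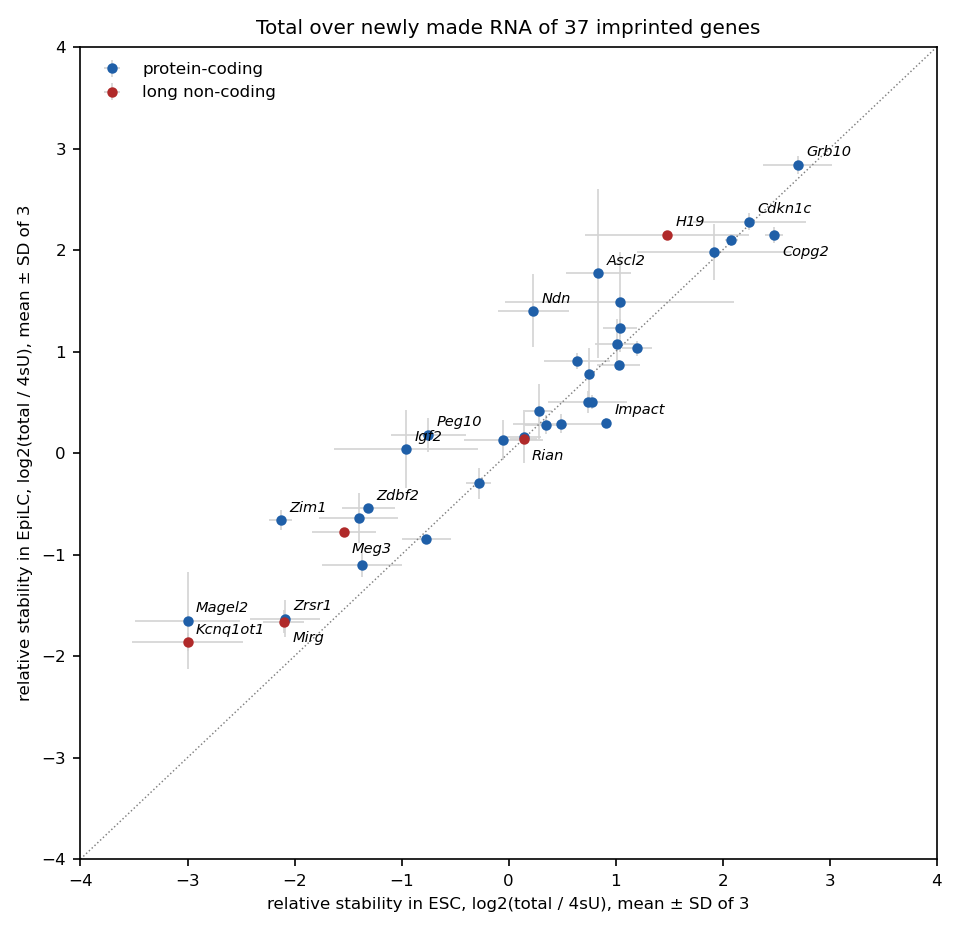
Relative stability, log2 of total over nascent RNA, of 37 imprinted genes in ESCs (horizontal) and EpiLCs (vertical), as mean ± SD of 3 library pairs, with long non-coding RNAs in red and the line of equality dotted. Kcnq1ot1 and Magel2 lie lowest, Grb10 highest, and Kcnq1ot1 and Ndn lie above the line.

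Between genes, levels were compared per length of exon. In EpiLC total RNA the highest were Cd81 at 149 RPKM, Impact at 148, Snrpn at 87.5, Grb10 at 66.5 and Mest at 61.2. In ESC total RNA they were Cd81 at 288 RPKM, Impact at 81.1, Mcts2 at 43.3, Copg2 at 38.5 and Snrpn at 34.9. H19 moved from 2.34 to 49.9 RPKM, next to Rian at 52.2.

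The genes that set, keep and remove DNA methylation imprints were read from a list of 17, all tested. In total RNA 3 rose (17.6%) and 4 fell (23.5%), against 16.3% and 11.2% of all genes tested. The rises were thus near the share of all genes, and the list's median change was -0.01. The count of rises was 2 with median-of-ratios size factors, with no filter on low reads, with DESeq2 and with quality weights. It was also 2 without ESC total replicate 3, and it was 4 with library totals alone. The de novo methyltransferases rose, Dnmt3b by 3.20 ± 0.09 (adjusted p = 3.71e-12) and Dnmt3a by 1.10 ± 0.14 (adjusted p = 9.71e-06), while their cofactor Dnmt3l fell with a log2 change of -1.68 ± 0.14 (adjusted p = 8.74e-08). Smchd1, a chromatin protein needed for silencing at some imprinted clusters, rose by 1.03 ± 0.09 (adjusted p = 2.45e-07). Zfp57, the zinc finger protein that protects imprints after fertilisation, fell with a log2 change of -2.59 ± 0.10 (adjusted p = 5.5e-11), from 344 ± 12.8 to 57.3 ± 5.32 CPM (SD, n = 3). Tet2, which oxidises methylated cytosine, fell with a log2 change of -3.60 ± 0.19 (adjusted p = 1.16e-09), and Uhrf1, the partner of the maintenance methyltransferase, fell with a log2 change of -1.24 ± 0.06 (adjusted p = 6.88e-10). Dnmt1, that methyltransferase, differed by -0.45 ± 0.07 (adjusted p = 5.67e-05), and Dppa3, another protector of imprints, by -0.01 ± 0.23 (adjusted p = 0.964) on low levels.

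A list of 34 other imprinted genes, many of them known for imprinting in placenta or brain, was read in the same way. Of 22 tested, 9 rose (40.9%) and 4 fell (18.2%) in total RNA, with a median of 0.04. Dcn, with 0 reads in ESCs and 4.81 CPM in EpiLC total RNA, was 1 of the 3 largest rises. The others were Calcr, the calcitonin receptor, at 5.37 ± 0.43 (adjusted p = 5.8e-08), and Atp10a, next to Ube3a, at 3.80 ± 0.12 (adjusted p = 9.61e-12). Calcr had at most 2 reads in any ESC 4sU library and 3 reads in any ESC total library. Dcn and Calcr passed the filter on low reads only through EpiLC libraries, which by itself favours genes that rise. The largest falls were Tspan32, a tetraspanin of the Kcnq1 domain, at -4.71 ± 0.65 (adjusted p = 1.75e-05), and Ddc, at -4.58 ± 0.22 (adjusted p = 3.45e-10). Ddc makes dopamine and serotonin and lies beside Grb10. Next came Dio3, the thyroid hormone deiodinase of the Dlk1-Meg3 domain, at -2.50 ± 0.62 (adjusted p = 0.00269). Dio3 went from 20 ± 12.2 to 2.92 ± 0.272 CPM in total RNA (SD, n = 3), so its ESC libraries lay far apart. Tspan32 had at most 1 read in any EpiLC 4sU library and 5 reads in any EpiLC total library. It passed the filter only through ESC libraries, which favours a fall. The shares above include Dcn, Calcr and Tspan32. Genes within 250 kb of any of the 44 imprinted genes, and not among these 44, numbered 107 among those tested. Genes of the other imprinted list, such as Nespas at the Gnas locus, were not taken out of these neighbours. Of these 29.9% rose and 11.2% fell, against 16.3% and 11.2% of all genes, and within 500 kb it was 24.1% and 12.3% of 162.

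Promoter windows of 300 bases were given for 37 of the 44 genes, 54 windows in all, since some genes have several starts. TGCCGC, searched on both strands, was found in 14 of the 54 windows (25.9%), from 13 genes, and in 11.6% of the 32851 windows of all genes. The windows of imprinted genes also held more CG dinucleotides, a median of 15.5 against 7, and a motif with CG is met more often in such sequence. Besides Mest and Plagl1, the windows with a copy included ones of Zdbf2 with 3 copies, Nap1l5 with 2, and Nnat, Mcts2, Meg3, Igf2, Grb10 and Zim1 with 1 each, genes that rose, were not called or were not tested. The genes with no window were H19, Rtl1, Peg10, Sgce, Impact, Cdkn1c and Kcnq1.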

How the data were processed

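The deposited values are raw read counts per gene and library, with no normalization. Per the file headers and the study's methods, the authors trimmed strand-specific single-end reads with cutadapt 1.14, aligned them to mm10 with STAR 2.5.3a, kept uniquely placed reads and counted them over exons of GENCODE M14 genes on the reverse strand with featureCounts 1.5.3, ribosomal RNA removed. Reads on exons that genes share on 1 strand were dropped. Symbols and gene types came from GENCODE M21, which matched 51274 of 51467 genes, and 92 spike-in entries with 0 reads were set aside.

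Genes with 3 CPM in 3 libraries were kept (14731) and fitted with limma 3.58.1 (voom, TMM scaling from edgeR 4.0.16) over all 12 libraries and 4 groups in R 4.3.3, with adjustment (Benjamini-Hochberg) over all genes kept. A call needed an adjusted p under 0.05 and a log2 change over 1 in size. CPM use TMM-scaled totals. On simulated counts of the total RNA contrast, 186 of 200 changed genes were recovered. Recovery of log2 changes near the fold threshold in the real libraries, where ESC replicate 3 stood apart, was not tested. Relative stability is log2 of total over 4sU CPM for libraries of the same cell type and number, since each extract was divided between the assays. That a number marks one extract is implied by the names and not stated. Counts below the filter were not tested, and depths of 3097693 to 21975684 reads limit genes with few reads.

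The imprinted genes and every list were chosen with earlier results of these data known. Every listed gene called in any comparison is named. From the machinery and other imprinted lists, the 3 largest called total RNA changes each way are named, with Zfp57, Dppa3 and the Dnmt genes. Windows and miRNAs are from RefSeq (GRCm38.p6). Alternatives were other scalings, filters and thresholds, edgeR, DESeq2 1.42.0, quality weights, replicate blocks, each comparison fitted alone and libraries left out.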

Additional observations from a re-analysis of the deposited data

Results flagged for a closer look

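The change from ESC to EpiLC differed between total and nascent RNA, by the interaction term, for 2 of the imprinted genes. For Kcnq1ot1 the difference was 1.16, from a total RNA change of 1.15 ± 0.18 and a nascent change of -0.01 ± 0.17, and for Ndn it was 1.14, from 1.80 ± 0.13 and 0.66 ± 0.24. With 3 libraries per group no group was tested for a sample far from the others.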

How the results depend on the processing

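Over the alternatives, 2566 log2 changes of single imprinted genes kept their side of the thresholds. A further 55 passed the threshold that had not, 43 no longer passed it, and none of those called turned its direction. Changes that were not called could turn their direction and still count as kept. The stability change of Cdkn1c, for example, ran from -0.4 to 0.44 with 1 library left out. The count of imprinted genes lower in total RNA was 5 with no expression filter and 9 by adjusted p alone, and in nascent RNA 7 by adjusted p alone. The count higher in total RNA was 26 by adjusted p alone. With 1 library left out, 19 to 20 rose and 2 to 3 fell in total RNA, and 15 to 17 rose and 3 to 4 fell in nascent RNA. The stability change was higher for 1 gene with no expression filter, 4 with sample quality weights, 4 with both ESC replicate 3 libraries left out, 5 by adjusted p alone, and 0 to 5 with 1 library left out. By adjusted p alone, the imprint machinery list had 7 higher and 8 lower in total RNA, 5 higher in nascent RNA and 2 lower in the stability change, and with both ESC replicate 3 libraries left out 1 was higher in nascent RNA. Of the other imprinted genes, adjusted p alone gave 9 lower in total RNA, 9 higher and 11 lower in nascent RNA and 2 higher in stability. Their count higher in stability was 0 with edgeR and DESeq2, 2 with quality weights and 0 to 1 with 1 library left out, and their count lower was 1 with edgeR, DESeq2, quality weights, both ESC replicate 3 libraries left out and both replicate blocks, and 0 to 1 with 1 library left out. Relative stability moved by more than its SD in 66 of 148 comparisons of a gene's value under another scaling. The median total RNA change of all genes was 0.02 with TMM, -0.01 with median-of-ratios size factors and 0.11 with library totals, and that of the stability change 0.11, 0.03 and 0.18.

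Each extract was divided between the assays, but no source used here ties the numbers to extracts, so the replicate numbers were not taken as a pairing in the reported fit. The same-number correlations of deviations were 0.163 to 0.408 between ESC assays but 0.0234 to 0.0747 between EpiLC assays and -0.0775 to 0.0533 across cell types. With the number as a block, 20 imprinted genes rose and 3 fell in total RNA, 16 rose and 4 fell in nascent RNA, and 2 were higher in stability. With a block for each culture, 3 were higher in stability, Zim1 besides the 2 of the reported fit. Within each cell type, 5 of 6 libraries correlated best with the library of their own number in the other assay.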
